A study of Mus musculus with 4 samples.

Results

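The C1qtnf genes encode secreted proteins related to complement C1q and to the hormone adiponectin. The 7 numbered members considered here were C1qtnf1 to C1qtnf7, and their signals were taken from every probe set that the array annotation assigns to a single gene symbol of that list. This gave 6 probe sets of 4 genes, out of 45037 probe sets and 17097 genes in all. C1qtnf1 and C1qtnf4 had 2 probe sets each, and C1qtnf3 and C1qtnf7 had 1 each. C1qtnf5 shares its only probe set with Mfrp, and C1qtnf2 and C1qtnf6 are not analysed here. C1qtnf3 was chosen by its lower log2 signal after Chadl knockdown in these same arrays and for its role in chondrocyte growth, so its values are a description with no test. The other members entered by family name and were tested.

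Most members of this family carry a signal peptide, a collagen-like stalk and a globular C1q domain, and assemble through both into oligomers that are released from the cell. C1qtnf3 is also called cartducin or CORS-26. It is made in developing mouse cartilage, and the recombinant protein increases the proliferation of chondrogenic precursor cells in culture through the ERK and AKT kinases. Several other members, like adiponectin, are studied mainly as hormones of fat tissue that act on AMP-activated kinase.

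RNA came from ATDC5, a mouse chondrogenic cell line that lays down cartilage-like matrix in differentiation medium. In the knockdown group (2 arrays) cells received 30 nM of an RNA duplex against Chadl by lipid transfection, and in the control group (2 arrays) 30 nM of a scrambled duplex. Differentiation medium replaced the transfection mix at 16 h, and RNA was taken at 5 days. The groups shared cell line, reagent and medium and differed in the duplex. The knockdown was by transient transfection with the 1 duplex that the labels call effective. Sample titles call the arrays biological replicates, but the labels do not say whether these were separate cultures. The p-values therefore measure the spread between these arrays, which may be technical. One strand of the Chadl duplex, shown because it is the agent that defines the knockdown group, is given in the labels with 25 nucleotides.
Chadl duplex: acaagguagagaaacaaagagacca

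Each value below is a log2 signal per probe set, made by the authors with RMA, and each difference is the knockdown mean minus the control mean. Differences on this scale can understate changes of dim genes, and signals of different probe sets do not rank genes by abundance. The arrays' medians were 4.24 and 4.25 in the knockdown group and 4.24 and 4.25 in the control group. Knockdown 1 stood apart. The SD over genes of the log2 difference was 0.20 between the knockdown arrays and 0.10 between the control arrays. Chadl, the targeted gene, read 4.29 and 4.64 in the knockdown arrays, against 4.91 and 4.84 in the control arrays, a difference of -0.41 that did not pass (adjusted p = 0.728, limma). Some chondrocyte markers were bright, with Col2a1 (cartilage collagen II) at 8.23 and 9.17 in the knockdown arrays and 9.01 and 9.08 in the control arrays, and Sox9 (the chondrogenic master factor) at 7.5 and 7.49 against 7.52 and 7.47. By limma, 0% of the 17097 genes had an adjusted p under 0.05, while an unadjusted p under 0.05 was reached by 4.15% on the higher and 2.52% on the lower side.

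C1qtnf3 was the one measured member whose signal was below both controls in both knockdown arrays. It read 5.43 in knockdown 1 and 6.40 in knockdown 2, against 6.91 and 6.93 in the control arrays. Both knockdown values lay below both control values, the knockdown arrays differed from each other by 0.97, and the control arrays differed by 0.02. The mean was 5.91 ± 0.69 in the knockdown arrays and 6.92 ± 0.01 in the control arrays (SD, n = 2 each), a log2 difference of -1.01, or 2.01-fold lower. Most of this lay in knockdown 1, which was 2.82-fold below the control mean, while knockdown 2 was 1.44-fold below it. Leaving out knockdown 1 gave a difference of -0.52, and leaving out knockdown 2 gave -1.49.

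The position of C1qtnf3 among all genes was similar in both knockdown arrays, although the size of its difference was not. Ordered from the lowest difference upward, it was gene 11 of 17097 in knockdown 1 and gene 14 in knockdown 2. Over the mean of both it was gene 9. Both ranks set a knockdown array against the same control arrays, and the gene was chosen for this pattern, so they add no support.

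**Figure D1:**
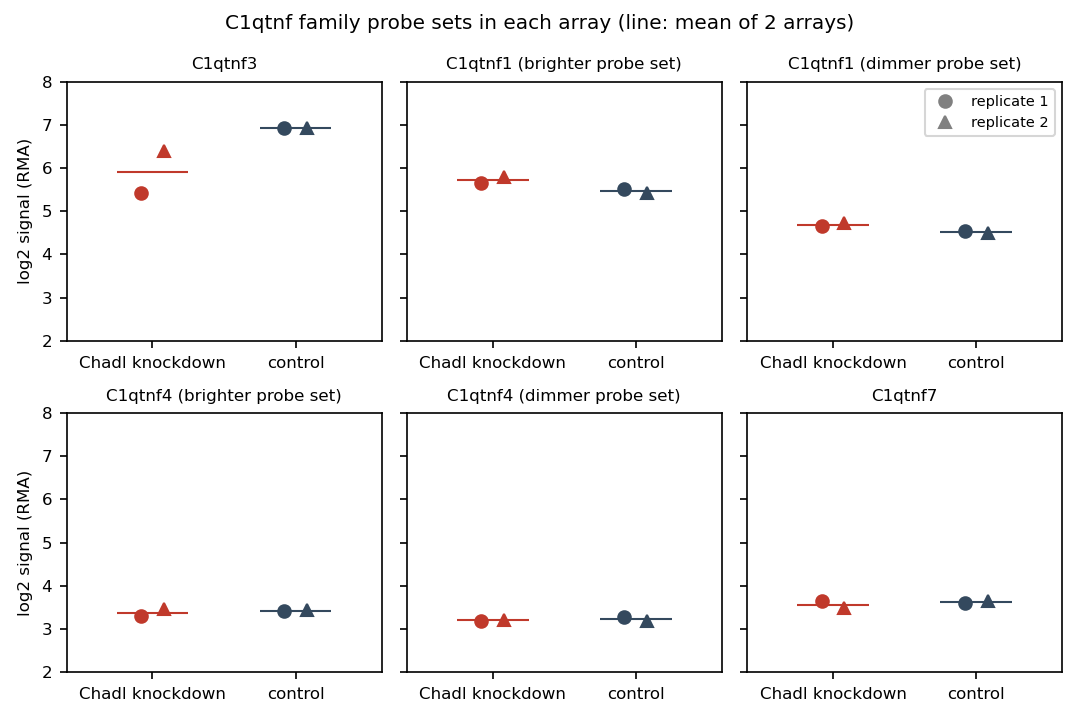
Log2 signal (vertical axis) of the 6 C1qtnf probe sets in the Chadl knockdown and control arrays, with a point for each array and a line at the mean of 2 arrays. C1qtnf3 reads 5.43 and 6.40 in knockdown arrays below its controls at 6.91 and 6.93, both C1qtnf1 probe sets are slightly higher in knockdown arrays, and C1qtnf4 and C1qtnf7 stay between 3.19 and 3.65.

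C1qtnf1, a secreted glycoprotein known to limit platelet aggregation on collagen, was higher in both knockdown arrays, in the direction opposite to C1qtnf3. Its brighter probe set read 5.65 and 5.79 in the knockdown arrays, against 5.50 and 5.42 in the control arrays. The groups did not overlap, and the gap between the knockdown arrays (0.13) was close to that between the control arrays (0.09). The signal was 1.2-fold higher (log2 difference 0.26, SE 0.09, 95% confidence interval 0.042 to 0.48). This did not pass in limma, with an unadjusted p of 0.0261 and an adjusted p of 0.728.

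The second C1qtnf1 probe set, which is dimmer, ran the same way. It read 4.65 and 4.72 in the knockdown arrays and 4.55 and 4.50 in the control arrays, again without overlap. With all probe sets tested, its difference was 0.16 (SE 0.08, adjusted p = 0.717, limma). The larger difference of C1qtnf1 was in knockdown 2 for both probe sets: 0.33 against 0.19 in knockdown 1 for the brighter one, and 0.19 against 0.12 for the dimmer one. For C1qtnf3 the larger difference was in knockdown 1.

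C1qtnf4, which encodes a member with a pair of C1q domains in place of a single one, was dim and did not differ beyond its spread. Its brighter probe set read 3.30 and 3.46 in the knockdown arrays, against 3.41 and 3.43 in the control arrays. The knockdown values lay on either side of the controls (difference -0.04, 95% confidence interval -0.23 to 0.15, adjusted p = 0.935, limma). The dimmer probe set read 3.19 and 3.21 in the knockdown arrays and 3.29 and 3.19 in the control arrays, so that the groups overlapped.

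C1qtnf7, another adiponectin-like secreted protein, was dim as well. It read 3.64 and 3.49 in the knockdown arrays, against 3.60 and 3.65 in the control arrays, and the groups overlapped. The difference was -0.06 (95% confidence interval -0.25 to 0.14, adjusted p = 0.907, limma). As fold changes these intervals run from 0.851 to 1.11 for C1qtnf4 and from 0.84 to 1.1 for C1qtnf7, and at such signals a change of RNA level could be larger than the change read.

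Dimness was gauged with 16 measured genes restricted to retina, lens, pancreas, testis, kidney or milk, such as the rod transducin gene Gnat1. Their signals ran from 2.79 to 6.06 over all arrays, and the 90th percentile of their means was 5.09. Slc12a1 alone set the top (5.78 to 6.06), and the next highest gene, Csn2, reached at most 5.38. The brighter C1qtnf1 probe set (5.42 to 5.79) was above Csn2 in every array. Chadl, C1qtnf4 and C1qtnf7 lay inside the range of 2.79 to 6.06 in every array, as did both C1qtnf1 probe sets. The knockdown itself is thus read from a dim probe set. C1qtnf3 lay above the top of the range in the control arrays and in knockdown 2. In knockdown 1 it lay inside the range but above Csn2. How far this limits the size of the differences was not tested.

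Among the 3 members tested, 0 passed an adjusted p of 0.05, against 0% of all genes. One gene, C1qtnf1, had both knockdown arrays above both controls, as did 21.2% of all genes, and 0 of these 3 had both below, as did 17.1% of all genes. C1qtnf3 makes up the count of 1 below, which its choice fixes. The probe set shared by Mfrp and C1qtnf5, whose coding sequences lie on a joint transcript in mouse and human, cannot be assigned to either gene. It read 5.02 and 5.10 in the knockdown arrays and 5.01 and 5.12 in the control arrays, values that overlap.

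**Figure D2:**
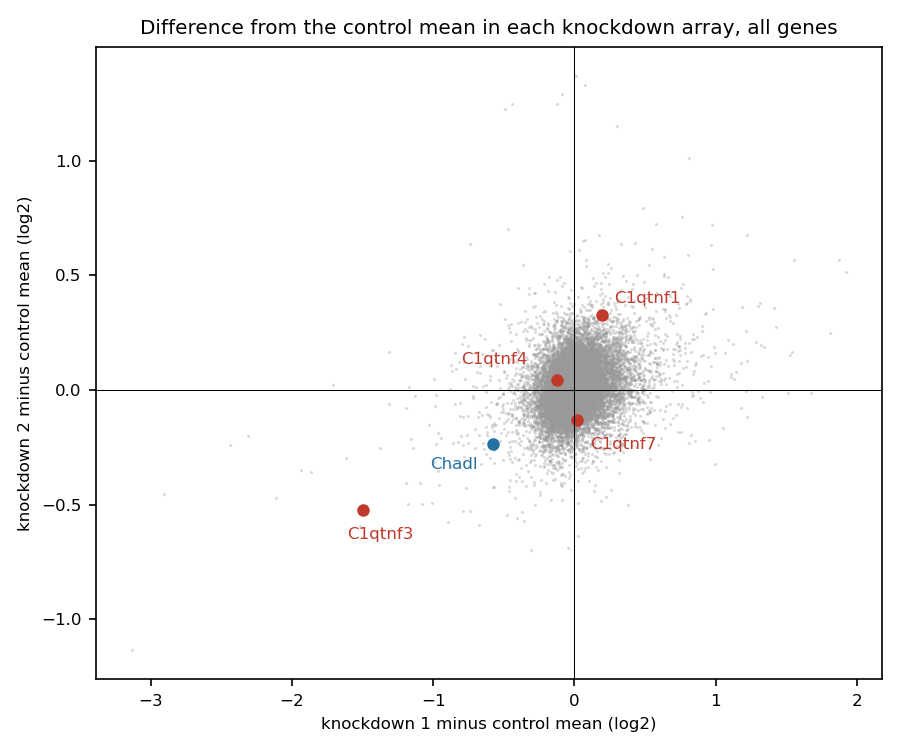
Log2 difference from the control mean in knockdown 1 (horizontal axis) and knockdown 2 (vertical axis) for all 17097 genes in grey, with the 4 measured C1qtnf genes in red and Chadl in blue. C1qtnf3 lies at -1.49 and -0.52, C1qtnf1 at 0.19 and 0.33, and C1qtnf4 and C1qtnf7 lie within the central cloud.

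Genes of the wider C1q family were compared next, since they encode the same globular domain. Of 25 listed relatives 20 were measured, and 0 passed over all genes in limma. An unadjusted p under 0.05 was seen for 1 on each side, beside 4.15% of all genes on the higher and 2.52% on the lower side. The groups did not overlap for 3 of the 20 that were higher in knockdown (15%) and for 4 that were lower (20%), near the shares over all genes. Their median difference was -0.04, beside 0.01 over all genes, and single differences ran from -0.23 to 0.14.

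The 2 relatives named by the rule are matrix genes. Col8a1, a chain of the short-chain network collagen VIII, read 8.93 and 9.21 in the knockdown arrays and 9.30 and 9.30 in the control arrays (difference -0.23, SE 0.09, adjusted p = 0.743, limma). Its lower signal lay mainly in knockdown 1. The dimmer probe sets of Col8a1 differed by -0.37 and -0.21, and in each both knockdown arrays lay below both controls. Emilin1, an elastic fibre glycoprotein, read 9.16 and 9.15 in the knockdown arrays and 9.02 and 9.04 in the control arrays (difference 0.12, SE 0.05, adjusted p = 0.743, limma). Its knockdown arrays were nearly equal. Without knockdown 2, when the lone knockdown array is taken to vary like the controls, 3 relatives passed instead of 0, which were Col8a1, Emilin1 and Adipoq. These are 15% of the relatives, beside 15.1% of all genes that passed in that same fit.

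Adiponectin and other numbered family members are named here after their values were seen. Adipoq, the fat cell hormone that gives the family its model structure, read 3.08 and 3.28 in the knockdown arrays, against 3.34 and 3.36 in the control arrays (difference -0.17, adjusted p = 0.754, limma). C1qtnf9, the closest relative of adiponectin in sequence, read 3.57 and 3.70 in the knockdown arrays and 3.59 and 3.73 in the control arrays. C1qtnf12 had 4 probe sets, of which the brightest read 4.99 and 4.75 in the knockdown arrays and 4.93 and 4.85 in the control arrays. Their differences ran from -0.05 to 0.06, with 2 opposite in sign to the brightest. The 3 chains of complement C1q itself ran between 3.31 and 3.84 over all arrays, and the 6 measured C1q-like and cerebellin genes, which encode synaptic organisers, between 2.81 and 4.82.

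The receptor and kinase list held adiponectin receptors, proposed receptors of family members, the adaptor Appl1, the kinases through which they act and the carboxylases Acaca and Acacb. Of 24 listed genes 19 were measured and 0 passed over all genes. An unadjusted p under 0.05 was seen for 1 on the higher and 0 on the lower side, beside 4.15% and 2.52% of all genes. The groups did not overlap for 3 that were higher (15.8%, beside 21.2% of all genes) and 4 that were lower in knockdown (21.1%, beside 17.1%). The median difference was 0.01, equal to that over all genes at this precision. Lamp1, a lysosomal membrane protein that was put forward as a C1qtnf3 receptor, read 11.35 and 11.33 in the knockdown arrays and 11.22 and 11.27 in the control arrays (difference 0.09, SE 0.03, adjusted p = 0.728, limma). This was the 1 gene of the list with an unadjusted p under 0.05, and it passed without knockdown 2, as 1 gene of the list instead of 0, in the fit in which 15.1% of all genes passed. Scarb2, also a lysosomal membrane protein and likewise put forward as a receptor, read 9.43 and 9.34 in the knockdown arrays and 9.36 and 9.43 in the control arrays, so that the groups overlapped, and 1 of its 2 probe sets had the opposite sign.

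The adiponectin receptors themselves, named after their values were seen, were bright and overlapped between the groups. Adipor1 read 8.87 and 9.01 in the knockdown arrays and 8.93 and 8.91 in the control arrays, and 2 of its 3 probe sets had the opposite sign. Adipor2 read 8.04 and 8.25 in the knockdown arrays and 8.11 and 8.16 in the control arrays. The 7 subunit genes of AMP-activated kinase differed by between -0.18 and 0.16. The lowest of them was Prkaa1, a catalytic subunit, at 5.73 and 5.6 in the knockdown arrays and 5.88 and 5.81 in the control arrays (adjusted p = 0.752, limma). Akt1 and Akt2 differed by -0.02 and 0.03.

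**Figure D3:**
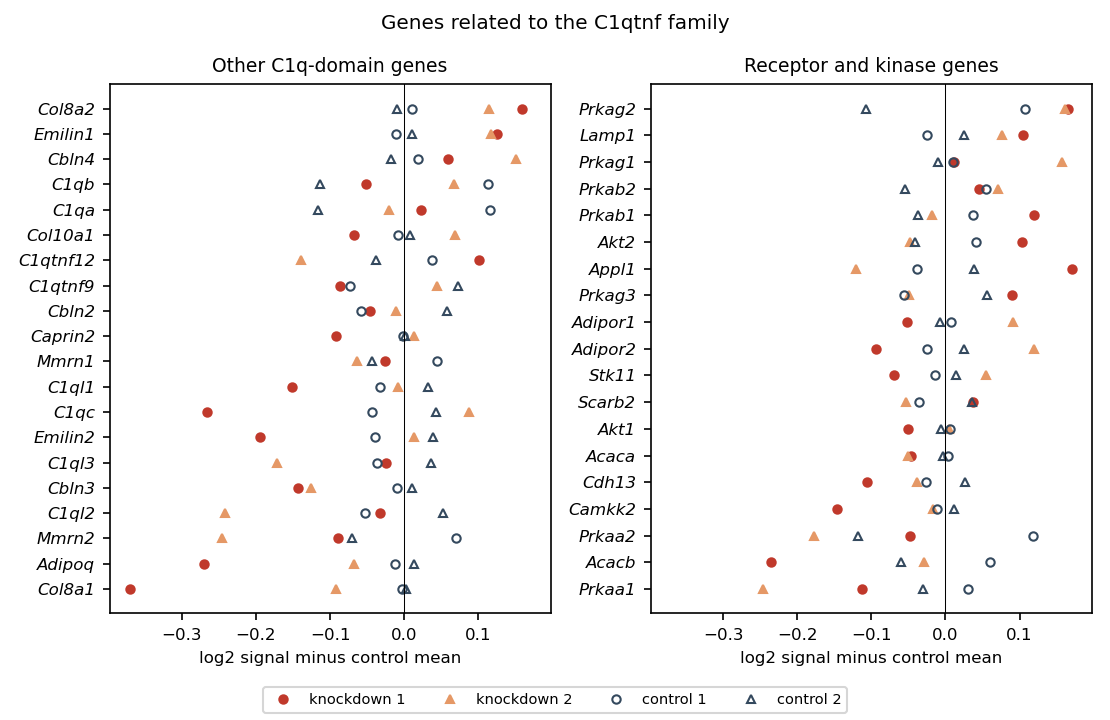
Log2 signal minus the control mean (horizontal axis) for each measured C1q-domain relative (left) and each gene of the receptor and kinase list (right), with filled points for the knockdown arrays and open points for the control arrays. Differences stay within 0.4 of the control mean, and Col8a1 in knockdown 1 lies farthest, near -0.37.

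The genes that flank C1qtnf3 on mouse chromosome 15 had small differences, none of which passed. The nearest annotated protein-coding genes were Ttc23l and Rai14 on one side and Amacr and Slc45a2 on the other, by the RefSeq gene order of GRCm38.p6. Rai14, an actin-binding protein gene, read 8.39 and 8.52 in the knockdown arrays and 8.51 and 8.49 in the control arrays. Amacr, the racemase of branched-chain fatty acid breakdown, read 5.12 and 4.95 in the knockdown arrays and 4.96 and 5.03 in the control arrays. The differences of these genes were -0.14 (Ttc23l), -0.04 (Rai14), 0.04 (Amacr) and 0.02 (Slc45a2), with adjusted p-values from 0.754 to 0.967 in limma. For Slc45a2, 1 of 2 probe sets had the opposite sign. The dimmer Rai14 probe sets differed by -0.19 and -0.13, and in each both knockdown arrays lay below both controls. Ttc23l read 3.40 and 3.40 in the knockdown arrays and 3.59 and 3.49 in the control arrays. It too was below both controls in both, as were 17.1% of all genes.

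The 6 genes nearest to C1qtnf3 in pattern were found by the Euclidean distance between log2 signals centred on their mean over the 4 arrays, among genes at or above the median signal of 4.86. They were Fam107a (distance 0.07), Pth1r (0.22), Mef2c (0.25), Adgrd1 (0.25), Cdkn1a (0.27) and Frzb (0.33). All 6 were selected for looking like C1qtnf3 and are described without a test. Fam107a, an actin-associated stress-response gene, read 5.46 and 6.38 in the knockdown arrays, against 7.0 and 6.95 in the control arrays. With the mean of its 3 probe sets its difference was -0.57 in place of -1.05.

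Several of the other 5 are known from the growth plate. Pth1r, the receptor for parathyroid hormone and its related peptide, read 7.70 and 8.82 in the knockdown arrays and 9.05 and 9.09 in the control arrays. Mef2c, a transcription factor of chondrocyte hypertrophy, read 6.24 and 7.02 in the knockdown arrays and 7.43 and 7.42 in the control arrays. Frzb, a secreted Wnt antagonist of cartilage, read 4.90 and 5.84 in the knockdown arrays and 6.01 and 6.10 in the control arrays. Cdkn1a, the cell cycle inhibitor p21, read 6.21 and 6.89 in the knockdown arrays and 7.39 and 7.39 in the control arrays. Adgrd1, an adhesion G protein-coupled receptor gene, read 3.74 and 5.06 in the knockdown arrays and 5.34 and 5.36 in the control arrays. In each, as in C1qtnf3, knockdown 1 was lowest, knockdown 2 was between, and the control arrays were close together. Knockdown 2 came nearest to the C1qtnf3 difference of -0.52 in Cdkn1a (-0.50) and Fam107a (-0.59), and lay at -0.22 in Frzb. Adgrd1 lay within the range of the tissue-restricted genes in every array, Frzb in every array but control 2, and Fam107a in knockdown 1. The top of that range is set by Slc12a1 alone.

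**Figure D4:**
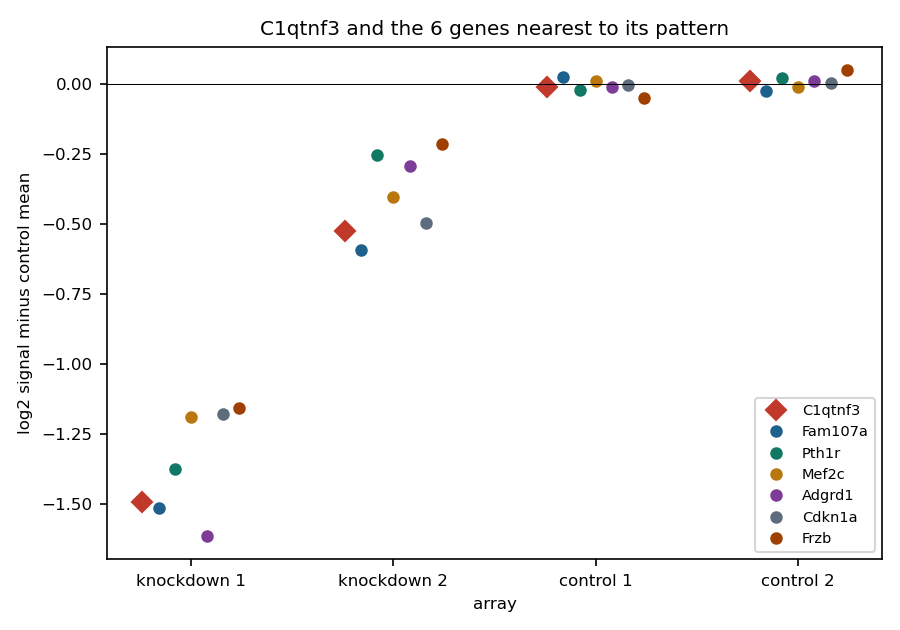
Log2 signal minus the control mean (vertical axis) in the 4 arrays for C1qtnf3 (diamonds) and the 6 genes nearest to its pattern (circles). Knockdown 1 lies between -1.16 and -1.61 and knockdown 2 between -0.22 and -0.59, below the control arrays near 0.

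The measured genes listed as osteoblast markers were lower in both knockdown arrays and most so in knockdown 1, as C1qtnf3 was. Of them 0 passed over all genes. Whether the culture held osteoblasts was not tested. Of 6 listed, 4 were measured, and Runx2 and Alpl were not. All 4 (Bglap, Dmp1, Ibsp and Sp7) had both knockdown arrays below both controls, as did 17.1% of all genes. The list was chosen with earlier results of these data known, so this count adds no support. In knockdown 2 the differences of Bglap and Sp7 were small, with Bglap at 5.68 and 6.78 in the knockdown arrays against 6.80 and 6.82 in the control arrays, and Sp7 at 7.60 and 8.30 against 8.45 and 8.38. Ibsp differed from the control mean by -3.13 in knockdown 1 and -1.14 in knockdown 2, the lowest of all genes in each. Dmp1, which was dim, differed by -1.14 and -0.26. The summed signal of the 4 on the linear scale was 384 and 959 in the knockdown arrays, against 1620 and 1598 in the control arrays, with most of it from Ibsp in the control arrays and in knockdown 2. Without Ibsp the sum was 255 and 442 in the knockdown arrays, against 482 and 465 in the control arrays. The 14 chondrocyte markers, all measured, summed to 820 and 1232 in the knockdown arrays and to 1100 and 1131 in the control arrays. Bright genes weigh most in such a sum, and Col2a1 differed from the control mean by -0.82 in knockdown 1 and 0.12 in knockdown 2. Ucma differed by -0.08 and 1.29, and Sox9 by 0.01 and -0.01. Of the chondrocyte markers 3 were below both controls in both knockdown arrays, near the 17.1% of all genes, and 0 were above. On the lower side, 3 chondrocyte markers (Col11a2, Hapln1 and Sox5) had an unadjusted p under 0.05 (limma), as did 2.52% of all genes. So did 2 of the 4 osteoblast markers (Dmp1 and Ibsp). Of the 14 chondrocyte markers, 9 lay within the range of the tissue-restricted genes in every array, and Col2a1, Sox6 and Sox9 lay above it in every array. The sums of both lists were lowest in knockdown 1. In culture RNA, fewer cells of a kind and less RNA per cell cannot be told apart, and the part of these markers in the C1qtnf3 difference was not tested.

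Markers of other cell types were mostly dim. The 5 measured adipocyte markers summed to 228 and 171 in the knockdown arrays and 187 and 169 in the control arrays, most of it from Lpl, which many mesenchymal cells express and which was the 1 marker of this list above the tissue-restricted genes in every array. The 5 macrophage markers summed to 71.5 and 74.6 in the knockdown arrays and 73.3 and 71.0 in the control arrays, and the 4 endothelial markers to 62.0 and 57.4 against 56.5 and 60.4. The 4 skeletal muscle markers summed to 71.7 and 72.8 in the knockdown arrays and 72.8 and 68.0 in the control arrays. The highest signal among macrophage, endothelial and muscle markers was 4.89, within the range of the tissue-restricted genes.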

How the data were processed

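Gene expression was measured on 4 Affymetrix mouse arrays, 2 Chadl knockdown and 2 control, grouped by sample title. The authors deposited RMA log2 signals, one for each probe set and array (RMA is named in the submitters' processing notes). This method corrects background, equalises the distributions of the arrays and combines the probes of a set, which removes differences in total RNA. The log base was read from the range, 2.19 to 12.72. Having 2 arrays per group limits the precision.

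After 104 array controls were left out, 45037 probe sets remained. Probe sets carried 1 symbol (28898), several (551) or none (15692, controls included), by an annotation that can be old. Gene IDs of 28689 probe sets matched RefSeq's GRCm38.p6 table. Each of 17097 genes was represented by its brightest probe set with 1 symbol. Knockdown was compared with control across all genes in limma 3.58.1 under R 4.3.3 (moderated statistics with a mean trend, 2 residual and 4.45 prior degrees of freedom, two-sided, Benjamini-Hochberg over all genes, threshold 0.05), with no filter. The script was tested on simulated data.

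Members and lists were chosen with earlier results of these data known. The rule for named genes took Chadl, all members, list genes with an unadjusted p under 0.05 (up to 4) and the 2 brightest of each list, 2 neighbours on each side of C1qtnf3 and its 6 nearest patterns. Alternatives were quantile normalization, median centring, leaving out genes below the 40th percentile, the mean of probe sets, all probe sets, eBayes without trend or robust, a replicate block and leaving out each array.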

Additional observations from a re-analysis of the deposited data

How the results depend on the processing

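The count of passing C1qtnf members, C1qtnf3 aside, was 0 under every alternative run, which does not show that they did not change. C1qtnf1 stayed higher, between 0.21 and 0.26 under the 8 alternatives that keep all arrays and between 0.19 and 0.33 with an array left out. Leaving out an array moved C1qtnf3 between -1.49 and -0.52 and Chadl between -0.58 and -0.23. The Chadl value of -0.58 came without knockdown 2, from a fit with 1 knockdown array whose spread is that of the control arrays alone. The counts of 3 and 1 came from that same fit. With an array left out, small differences changed sign: C1qtnf4 (-0.12 to 0.042), C1qtnf7 (-0.13 to 0.021), C1qtnf9 (-0.094 to 0.052), C1qtnf12 (-0.14 to 0.10), Adipor1 (-0.052 to 0.091), Adipor2 (-0.093 to 0.12), Scarb2 (-0.053 to 0.037), Rai14 (-0.11 to 0.022), Amacr (-0.048 to 0.12) and Slc45a2 (-0.0008 to 0.047). With the mean of probe sets Scarb2 (0.037), Slc45a2 (-0.057), C1qtnf12 (0.0075) and Adipor1 (-0.082) also did; their probe sets differ in sign. C1qtnf4 and C1qtnf7 had no value with dim genes left out. With the replicate block C1qtnf1 differed by 0.26 (adjusted p = 0.811) and 0 members passed. Same-numbered arrays deviated with a correlation of -0.0041 over genes, which shows no pairing by number. With 2 arrays per group, and knockdown 1 apart from the rest, this cannot exclude one. The causes were not tested.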
